A study of Mus musculus with 14 samples.

Results

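The thymuses of mice injected with estradiol for 3 days were compared with the thymuses of untreated mice at day 0. All arrays titled as estradiol treatment at day 3 and all titled as day 0 control were taken, which gave 2 arrays against 2, or 4 of the 14 arrays of the series. The whole study followed mouse thymus gene expression at days 2, 3 and 6 of estradiol injection or of a genistein diet. The question of the comparison used here is which transcripts of the thymus differ after 3 days of estradiol. Genistein is a plant isoflavone that binds estrogen receptors. The estradiol day 3 group was also set against the 2 genistein arrays of the same day and against the 4 estradiol arrays of days 2 and 6.

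All groups were female C57BL/6 mice, described in the labels as 21 days old, with ovariectomy on day 26 and the start of treatment on day 30, so the controls were ovariectomised too. The labels do not say from when those days are counted, so the age at treatment is unclear. A phytoestrogen-free AIN-93G diet was given from shortly after the surgery. The estradiol day 3 mice received a daily subcutaneous injection of 125 ng of 17 beta-estradiol in 0.02 ml of corn oil. The genistein day 3 mice were fed 1500 ppm of genistein in the same diet. The estradiol day 2 and day 6 mice received the same injections as those of day 3. The day 0 control mice received neither injection nor oil, so estradiol, oil, handling and 3 days of age cannot be told apart in the comparison with them. Each group had 6 mice, and each array held RNA pooled from 3 of them. A p-value below therefore measures the spread between pools of mice, with 2 pools a group.

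The thymus is where T cells are made. Immature thymocytes enter without CD4 or CD8, pass through a large double-positive stage in the cortex, and are selected on epithelial cells of cortex and medulla, while macrophages clear the many that die. Estrogens are known to shrink the thymus, and ovariectomy removes the main source of them in females. Because whole organs were pooled, fewer cells of a type and less RNA per cell cannot be told apart in any result below.

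Signals are MAS5 intensities of 22690 Affymetrix probe sets, a probe set being the group of short probes that measures 1 transcript region. The deposited 2%-trimmed mean signal was 150.04 on 11 of the 14 arrays, but 300.3 and 334.6 on the 2 estradiol day 3 arrays and 223.4 on 1 estradiol day 2 array. Every array was brought to 150.04 before any value below was computed. Deposited scale and estradiol day 3 coincide, so whatever set that scale cannot be told apart from the treatment. After rescaling the log2 signals of the 2 estradiol day 3 arrays correlated at 0.986, and those of the 2 controls at 0.955. Replicate arrays differed with a median SD of 0.0842 for estradiol day 3, 0.157 for control and 0.146 for genistein day 3, on the log2 scale. Control replicate 2 had the lowest mean correlation with all other arrays, at 0.942. The ratio of the 3' to the 5' Gapdh probe sets, a sign of RNA integrity, was 0.883 and 0.878 on the estradiol day 3 arrays and 0.945 and 0.894 on the controls.

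The tissue label held against defining genes. Rag1, which opens the T cell receptor genes for recombination, had signals of 2719 and 2379 on the estradiol day 3 arrays and 2446 and 2313 on the controls. Cd8a read 1846 and 1899 on the estradiol day 3 arrays and 1986 and 1679 on the controls. Foxn1, the transcription factor of thymic epithelium, read 89.1 and 96.0 on the estradiol day 3 arrays and 95.8 and 85.9 on the controls. The groups overlapped for these 3 genes. The probe sets of the estrogen receptors Esr1 and Esr2 and of the progesterone receptor Pgr averaged 15.5, 14.2 and 19.2 over all arrays. A probe set was tested where its mean log2(signal + 16) was above 5.92, the value of a constant signal of 44.5. For Esr1, Esr2 and Pgr that mean was 4.93, 4.90 and 5.10, so these receptors were not tested.

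With 13575 probe sets tested by limma on log2(signal + 16), 8 were higher and 1 was lower in estradiol day 3 than in control at a Benjamini-Hochberg adjusted p under 0.05. That is 0.0663% of those tested, 0.0589% in the higher and 0.00737% in the lower direction. Taken by gene, each gene standing by its brightest probe set, 4 were higher (0.0487%) and 1 was lower (0.0122%) of 8214, or 0.0609% in all. The unadjusted p was under 0.05 for 1381 probe sets, 842 of them higher and 539 lower. The median log2 difference over all genes was -0.004, with 4069 genes above 0 and 4145 below. The count of 9 rested on the 4 arrays compared: it was 0 without control replicate 2 and 0 without either estradiol day 3 array, and 184 without control replicate 1. It was 5 without any 1 array of estradiol day 2 or genistein day 2, 3 without either estradiol day 6 array, and 14 without either genistein day 6 array, which enter through the shared estimate of spread.

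**Figure D1:**
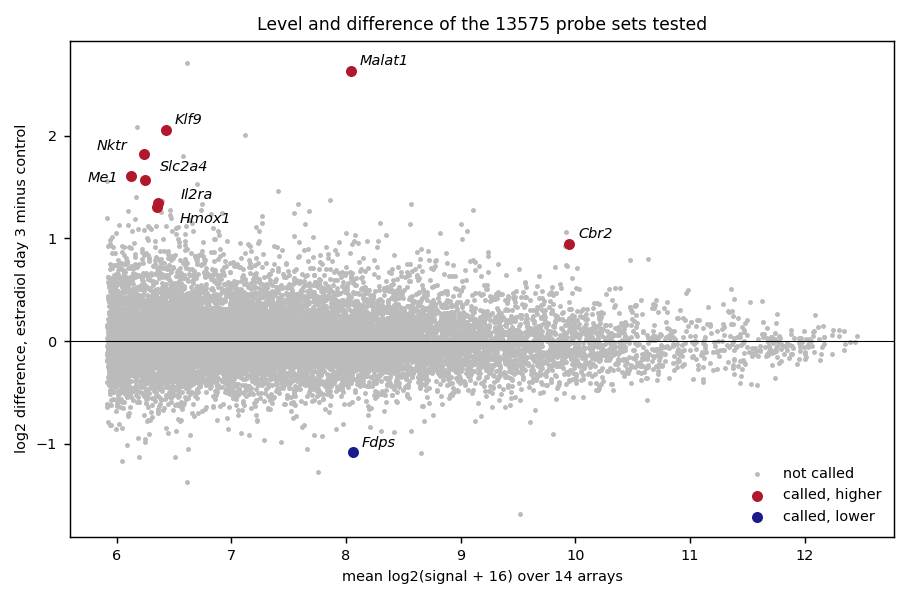
Log2 difference of estradiol day 3 minus control (vertical axis) against the mean log2(signal + 16) over the 14 arrays (horizontal axis) for each of the 13575 probe sets tested. Red points are the 8 probe sets called higher and the dark blue point is Fdps, the 1 called lower; grey points were not called. Among the red points Cbr2 and Malat1 are the brightest, and the others lie at the left, dim end.

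Slc2a4, the insulin-responsive glucose transporter GLUT4, read 68.4 and 73.4 on the estradiol day 3 arrays and 11.0 and 15.9 on the controls, and rose by 1.57 ± 0.19 on the log2 scale (SE, limma adjusted p = 0.00882). Both estradiol arrays lay far above both controls, which were near background. The genistein day 3 arrays read 63.2 and 80.6, on either side of the estradiol values and also far above the controls. A dimmer Slc2a4 probe set, below the level needed for testing, read 39.2 and 46.4 on the estradiol day 3 arrays and 41.0 and 30.3 on the controls.

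Cbr2, a carbonyl reductase, was the brightest of the called genes. It read 1108 and 1170.5 on the estradiol day 3 arrays and 615 and 553 on the controls, a rise of 0.95 ± 0.14 (log2, SE, limma adjusted p = 0.0282). The groups were wide apart, and the genistein day 3 arrays lay between them at 928 and 961. Hmox1, the heme oxygenase that degrades heme, read 93.1 and 129 on the estradiol day 3 arrays and 45.8 and 26.0 on the controls. It rose by 1.31 ± 0.21 (log2, SE, limma adjusted p = 0.0446), with no overlap. Me1, the malic enzyme that supplies NADPH for making fatty acids, was called by its dimmer probe set, which read 84.6 and 144 on the estradiol day 3 arrays and 19.6 and 32.7 on the controls. Its difference was 1.61 ± 0.26 (log2, SE, limma adjusted p = 0.0446). The brighter Me1 probe set differed by 0.26, with signals of 156 and 218 on the estradiol day 3 arrays and 155 and 147 on the controls, and was not called.

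The 1 gene that fell was Fdps, the farnesyl diphosphate synthase of the cholesterol pathway. It read 173 and 190.4 on the estradiol day 3 arrays and 384 and 422 on the controls, and fell by 1.08 ± 0.16 on the log2 scale (SE, limma adjusted p = 0.0317). Every estradiol value was under every control value. The genistein day 3 arrays read 271 and 226, between the others.

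Of the regulators, Klf9, a zinc finger transcription factor, was called by its dimmer probe set, with 97.1 and 87.9 on the estradiol day 3 arrays and 9.80 and 10.2 on the controls. The difference was 2.06 ± 0.28 (log2, SE, limma adjusted p = 0.0177). The controls were near background, and the genistein day 3 arrays read 60.4 and 83.4. The brighter Klf9 probe set read 179 and 174 on the estradiol day 3 arrays and 134 and 153 on the controls, a difference of 0.27 that was not called. Il2ra, the alpha chain of the interleukin 2 receptor that marks early thymocytes and regulatory T cells, was called by its dimmer probe set. That probe set read 93.5 and 116 on the estradiol day 3 arrays and 36.1 and 27.0 on the controls, 1.35 ± 0.21 higher (log2, SE, limma adjusted p = 0.0321). The brighter Il2ra probe set did not overlap either, with 112 and 119.6 on the estradiol day 3 arrays and 56.8 and 46.0 on the controls, but its limma adjusted p was 0.277.

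The remaining calls were a nuclear RNA and a cyclophilin-related protein. Malat1, a long noncoding RNA of nuclear speckles, read 891 and 850.4 on the estradiol day 3 arrays and 137 and 117 on the controls. It rose by 2.64 ± 0.41 (log2, SE, limma adjusted p = 0.0321), the widest of the 9 called differences. The genistein day 3 arrays read 82.8 and 206, around the controls. Malat1 has 5 tested probe sets, whose differences were 2.01, 2.64, 0.61, 2.71 and 0.88. Only the brightest of them, at 2.64, was called. Nktr, a cyclophilin-related protein first found on natural killer cells, was called by its dimmer probe set. That probe set read 168 and 171 on the estradiol day 3 arrays and 39.2 and 33.8 on the controls, 1.82 ± 0.20 higher (log2, SE, limma adjusted p = 0.00515). The brighter Nktr probe set read 385 and 362 on the estradiol day 3 arrays and 395 and 189.8 on the controls and overlapped, its low value being on control replicate 2. Of 15 nuclear-retained transcripts tested Malat1 alone was called by its brightest probe set, against 0.0609% of all genes. Neat1 and Xist differed by 0.06 and 0.36.

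**Figure D2:**
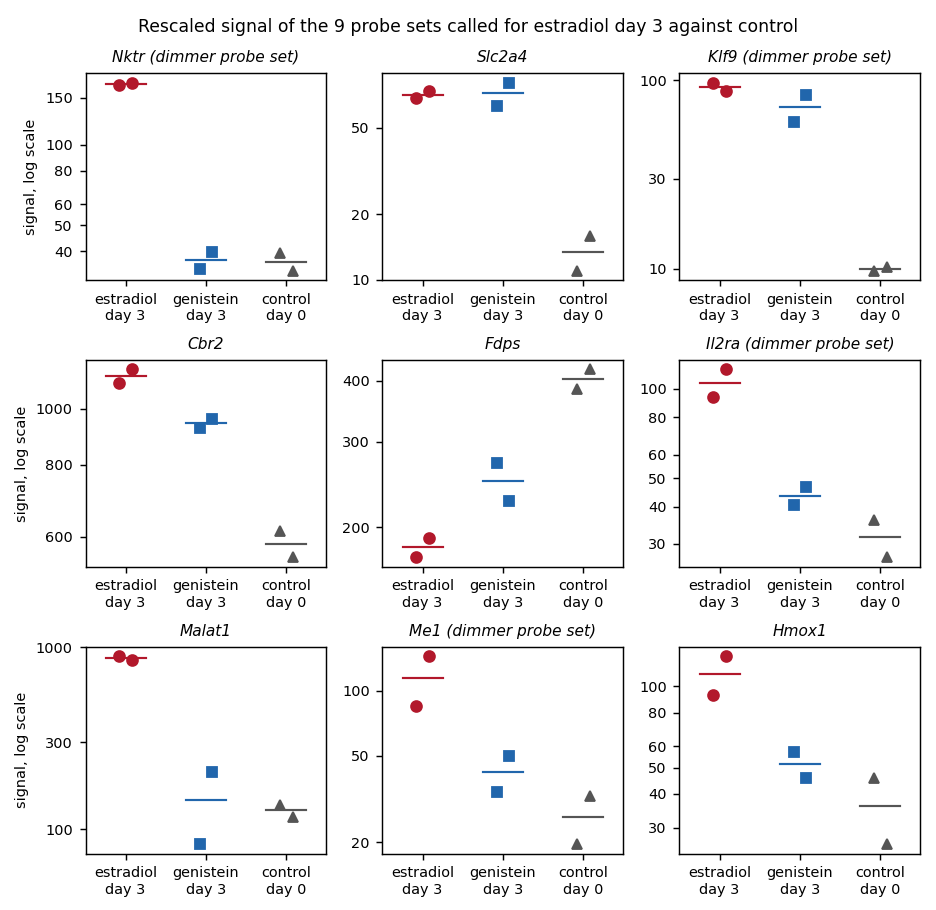
Rescaled signal (vertical log axes) of the 9 probe sets called for estradiol day 3 against control, ordered by p, on each array of estradiol day 3 (red circles), genistein day 3 (blue squares) and control day 0 (grey triangles). Short lines are group means; both red points lie beyond both grey points in all 9 panels, while the blue points lie near the grey ones for Nktr and near the red ones for Slc2a4.

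These calls differed in how firmly they stood. Over 23 alternative settings and left-out arrays, Slc2a4, Klf9 and Nktr kept an adjusted p under 0.05 in 19 each, Il2ra in 12, Malat1 in 11, Me1 in 8 and Hmox1 in 7. Cbr2 kept it in 17 of 24 and Fdps in 16 of 24. Their direction was the same in all of them. The pseudocount set the size of the dim ones: with 1 in place of 16 the Klf9 difference was 3.09, and with 64 it was 1.08. For Slc2a4 these values were 2.34 and 0.80.

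A gene is said to stand apart where both estradiol day 3 arrays lay beyond both controls and the group means differed by at least 0.5 log2. Over all 8214 genes, 4.13% stood apart above control and 1.97% below. Below the calls, genes that stood apart are given here by their smallest unadjusted p. Of the 14 highest ranked above control, Slc2a4, Cbr2, Malat1 and Hmox1 are given above. Tsc22d3, the glucocorticoid-induced leucine zipper, read 612 and 561 on the estradiol day 3 arrays and 253 and 287 on the controls. Its difference was 1.08 ± 0.20 (log2, SE, limma adjusted p = 0.081). Abca1, which exports cholesterol from cells, read 528 and 511 on the estradiol day 3 arrays and 252 and 304 on the controls. Vcam1, an adhesion molecule of stroma and macrophages, read 648 and 709.8 on the estradiol day 3 arrays and 392 and 413 on the controls. Tsc22d3, Abca1 and Vcam1 shared the limma adjusted p of 0.081. Trgv1, a variable segment of the gamma chain of the T cell receptor, read 406 and 441 on the estradiol day 3 arrays and 180.3 and 183 on the controls, and Alcam, a ligand of CD6, read 134 and 115 on the estradiol day 3 arrays and 51.5 and 43.1 on the controls. Cmah, which hydroxylates sialic acid, Crip3, a LIM domain protein of the thymus, and Lpl, the lipoprotein lipase, differed by 1.10, 0.65 and 0.90. Ccdc9 and the RNA-binding protein gene Fxr2 differed by 1.08 and 1.80.

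Below control the ranking was led by lipid enzymes. Besides Fdps it held Sqle, Idi1 and Hmgcs1 of the same pathway, which are described next. Ctss, the cathepsin that trims the invariant chain of MHC class II, read 587 and 528 on the estradiol day 3 arrays and 875 and 918 on the controls (difference -0.67 ± 0.13, log2, SE, limma adjusted p = 0.0983). Plvap, the diaphragm protein of endothelial openings, read 30.4 and 27.5 on the estradiol day 3 arrays and 64.1 and 72.8 on the controls (limma adjusted p = 0.112). Both genes were low on both estradiol arrays. Pbk, a mitotic kinase, Fignl1, an ATPase of DNA repair, and Prim1, the catalytic primase subunit, differed by -0.65, -0.88 and -0.52. The splicing factor subunit Sf3b6, the prohibitin Phb2, the mitochondrial ribosomal protein Mrps14, the adaptor Dab1 and the ciliary gene Cfap298 differed by -0.73, -0.55, -0.51, -0.64 and -0.90. None of these was called.

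Cholesterol is built from acetyl-CoA through mevalonate, farnesyl diphosphate and squalene, and SREBP2 with its partner NF-Y switches its enzymes on when membrane sterols are low. Of 15 enzymes tested, 13 had negative differences, and the median was -0.45, against -0.004 over all genes. Of the 15, 6 stood apart below control, against 1.97% of all genes. Fdps was the 1 called, against 0.0609% of all genes called. The summed signal of the 15 was 1924 and 1946 on the estradiol day 3 arrays and 3309 and 3096 on the controls.

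Along the pathway the wide differences were spread over early, middle and late steps. Hmgcs1, the synthase at the start, read 305 and 239.6 on the estradiol day 3 arrays and 645 and 544 on the controls (-1.09 ± 0.23, log2, SE, limma adjusted p = 0.123). Idi1, the isomerase just before Fdps, read 136 and 143 on the estradiol day 3 arrays and 371 and 353 on the controls (-1.28 ± 0.22, limma adjusted p = 0.0633). Sqle, the squalene epoxidase, read 171 and 168 on the estradiol day 3 arrays and 345 and 325 on the controls (-0.92 ± 0.16, limma adjusted p = 0.0633). In these 3 genes every estradiol value lay under every control value. Cyp51, which demethylates lanosterol, read 52.1 and 43.0 on the estradiol day 3 arrays and 122 and 103 on the controls, and Msmo1, the next oxidase, named here after its values were seen, read 55.3 and 43.1 on the estradiol day 3 arrays and 126 and 125 on the controls. Neither was called. Ebp and Sc5d near the end differed by -0.11 and -0.02, and Lss and Tm7sf2, whose control arrays were far from each other, by 0.07 and 0.17, both of which turned negative without control replicate 2.

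**Figure D3:**
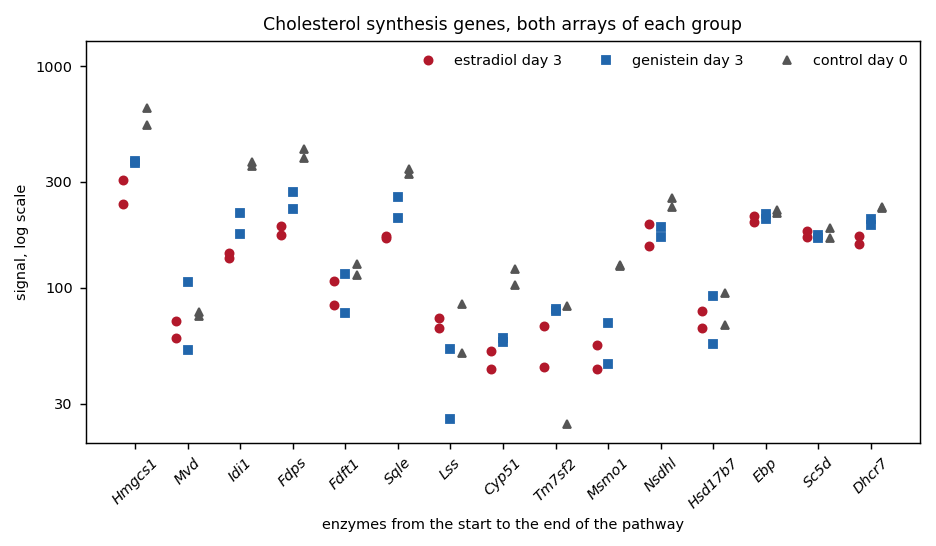
Rescaled signal (vertical log axis) of the 15 cholesterol synthesis genes tested, placed from the start to the end of the pathway, on each array of estradiol day 3 (red circles), genistein day 3 (blue squares) and control day 0 (grey triangles). Red points lie under both grey points for Hmgcs1, Idi1, Fdps, Sqle, Cyp51 and Msmo1, while Ebp and Sc5d lie close together in all groups.

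Of the 6 genes of this pathway that stood apart below control, the 4 with a promoter entry are shown. Fdps and Sqle had no entry, so their promoters were not searched. CCAAT, the letters that NF-Y is known to bind, is in all 4. TCACNCCAC, a form of the sterol element that SREBP2 is known to bind, is in Hmgcs1 alone. Other forms of that element were not searched, so the other promoters may or may not hold one. The motifs were chosen after the values were seen. Each line gives the 250 bases before the RefSeq start on the gene's own strand (build GRCm38.p6), and capitals mark TCACNCCAC, a sterol element, and CCAAT, both searched on either strand.
Hmgcs1, chr13:119690101-119690350, plus strand: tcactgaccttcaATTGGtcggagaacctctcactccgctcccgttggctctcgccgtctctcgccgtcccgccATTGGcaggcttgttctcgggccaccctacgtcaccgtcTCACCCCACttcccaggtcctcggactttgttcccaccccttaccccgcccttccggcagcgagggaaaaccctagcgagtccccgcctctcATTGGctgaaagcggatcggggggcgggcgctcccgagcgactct
Idi1, chr13:8885356-8885605, plus strand: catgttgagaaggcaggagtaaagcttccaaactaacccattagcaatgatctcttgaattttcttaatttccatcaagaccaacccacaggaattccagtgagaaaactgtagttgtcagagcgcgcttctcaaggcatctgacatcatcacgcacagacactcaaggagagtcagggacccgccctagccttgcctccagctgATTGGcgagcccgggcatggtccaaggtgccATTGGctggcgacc
Cyp51, chr5:4104698-4104947, minus strand: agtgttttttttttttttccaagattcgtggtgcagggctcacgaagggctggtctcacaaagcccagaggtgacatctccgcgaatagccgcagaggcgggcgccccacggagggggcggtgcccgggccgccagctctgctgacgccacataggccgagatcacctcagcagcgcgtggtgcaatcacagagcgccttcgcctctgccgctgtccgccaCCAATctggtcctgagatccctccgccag
Msmo1, chr8:64733579-64733828, minus strand: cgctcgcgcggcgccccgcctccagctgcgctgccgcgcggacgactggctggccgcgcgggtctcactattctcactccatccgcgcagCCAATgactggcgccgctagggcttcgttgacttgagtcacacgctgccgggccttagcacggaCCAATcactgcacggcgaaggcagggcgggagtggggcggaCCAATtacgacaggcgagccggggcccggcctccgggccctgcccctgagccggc

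In a window from 250 bases before to 50 after the start, CCAAT was present in all 12 cholesterol synthesis genes that matched a promoter entry and in 41.1% of all 27025 promoters. TCACNCCAC was present in Hmgcs1 among those 12, against 1.44% of all promoters, and in Malat1 among the 6 called genes that matched a promoter entry. The full estrogen response palindrome, GGTCA and TGACC with 3 bases between them, was present in 20 promoters, or 0.074%, and in 0 of those 6 called genes. A match describes letters in this window and is not a binding site.

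Of 23 other sterol and fatty acid genes tested, 18 had positive differences, with a median of 0.15. The median was 0.0808 without control replicate 2. Of these, 4 stood apart above control, Abca1, Scd1, Abcg1 and Fasn, and Stard4 stood apart below. Genes apart above control made up 4.13% of all genes. Scd1, the stearoyl-CoA desaturase, read 596 and 1099 on the estradiol day 3 arrays and 372 and 285 on the controls, and Fasn, the fatty acid synthase, read 501 and 724 on the estradiol day 3 arrays and 418 and 351 on the controls. Estradiol day 3 replicate 2 was the higher one in both genes. Abcg1, another sterol exporter, differed by 0.64, and Stard4, a sterol carrier, by -0.54. None of these 23 was called by its brightest probe set.

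Genes of adipocytes, which surround and enter the thymus, overlap in part with the lipid genes. Of 13 tested, 12 had positive differences, the median was 0.51, and 7 stood apart above control, against 4.13% of all genes. Slc2a4 was the 1 called by its brightest probe set, against 0.0609% of all genes called. The summed signal was 3387 and 4730.0 on the estradiol day 3 arrays and 2542 and 2690.0 on the controls, so replicate 2 of estradiol was well above replicate 1. Lpl read 409 and 571 on the estradiol day 3 arrays and 252 and 253 on the controls, and Cebpa, a regulator of fat cells, read 172 and 172 on the estradiol day 3 arrays and 114 and 54.8 on the controls. The defining adipokine Adipoq read 54.8 and 91.0 on the estradiol day 3 arrays and 64.2 and 128 on the controls and overlapped, and its difference of -0.30 turned positive without control replicate 2. Pparg, Lep, Cidec, Plin4 and Aqp7 were below the level tested. Of 3 brown fat genes tested, 2 were above 0 and 1 below, with a median of 0.21, and Ucp1 alone stood apart. Ucp1, the uncoupling protein of brown fat, read 73.1 and 215 on the estradiol day 3 arrays and 12.2 and 24.5 on the controls, a difference of 2.09 that was not called. Its replicates were also far from each other on estradiol day 2, at 544 and 191, and day 6, at 138 and 20.7. Cidea, Ppargc1a, Cox7a1, Cox8b, Fabp3 and Slc27a2 were below the level tested. The part of fat in the dissected tissue in these results was not tested.

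Macrophage genes were the list with the most members apart. Of 25 tested, 18 stood apart above control, against 4.13% of all genes, and 1, Mfge8, stood apart below, against 1.97%. Of the 25 differences 22 were positive, and the median was 0.65. Hmox1 was the 1 called by its brightest probe set, against 0.0609% of all genes called. The summed signal was 11202 and 11581 on the estradiol day 3 arrays and 7842 and 8097 on the controls. Mertk, the receptor by which macrophages take up dying cells, read 93.7 and 92.5 on the estradiol day 3 arrays and 35.1 and 49.3 on the controls. Apoe, a lipid carrier made by macrophages, read 1194 and 1331 on the estradiol day 3 arrays and 734 and 758 on the controls. Mertk and Apoe differed by 0.92 and 0.74, with limma adjusted p of 0.183 and 0.141. Some defining macrophage genes did not stand apart, Adgre1 differing by -0.16 and Lyz2 by -0.09, and Mfge8, a bridge to dying cells, read 267 and 199.5 on the estradiol day 3 arrays and 298 and 402 on the controls. Cd163, Marco, Spic and Trem2 were among 6 genes below the level tested.

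Neutrophil genes, granule genes among them, were also mostly above control on the estradiol day 3 arrays. Of 10 tested, 9 had positive differences and the median was 0.61, with none called. Of the 10, 6 stood apart above control, against 4.13% of all genes. The summed signal was 1621 and 2230.0 on the estradiol day 3 arrays and 1168 and 1166 on the controls. Ngp, a granule protein, read 332 and 463 on the estradiol day 3 arrays and 179 and 214 on the controls. Lcn2, the iron-scavenging lipocalin, read 87.0 and 119 on the estradiol day 3 arrays and 51.9 and 43.1 on the controls. Estradiol day 3 replicate 2 was the higher in both genes. S100a8 and S100a9, the calprotectin subunits, differed by 0.84 and 0.81, and Il1b, the 1 gene below control, by -0.62. The granule genes Elane, Camp and Prtn3 and the receptors Csf3r and Cxcr2 were below the level tested.

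Fibroblast and epithelial genes were mostly above control, while endothelial genes were split, with 5 differences above 0 and 8 below. Over all genes 4.13% stood apart above control and 1.97% below. Of 22 fibroblast and matrix genes 21 had positive differences, 4 stood apart above control, and the median was 0.30. Col1a1, a fibrillar collagen chain, read 75.2 and 102 on the estradiol day 3 arrays and 38.6 and 25.1 on the controls. Of 13 endothelial genes none stood apart above control, Plvap stood apart below, and the median was -0.08. That median was 0.0289 without control replicate 2 and -0.147 without control replicate 1, and Eng and Esam differed by 0.42 and 0.48. Of 16 cortical epithelial genes 15 had positive differences, with a median of 0.26. Enpep, a surface peptidase of cortical epithelium, read 309 and 376 on the estradiol day 3 arrays and 195 and 182 on the controls. Ccl25, the chemokine that draws thymocytes, read 2115 and 2249 on the estradiol day 3 arrays and 1601 and 1544 on the controls. Of 12 medullary epithelial genes 11 had positive differences, 4 stood apart above control, and the median was 0.38. Aire, which turns on tissue-restricted antigens, read 87.5 and 106 on the estradiol day 3 arrays and 64.9 and 38.4 on the controls, and control replicate 2 was the lowest. None of the stromal genes was called.

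Thymocyte genes were described by stage, beside 4.13% of all genes apart above control and 1.97% below. Double-positive genes, of which the organ holds most, had a median of -0.03 over 16 tested, 7 above 0 and 9 below, and none stood apart. Their summed signal was 21746 and 21126 on the estradiol day 3 arrays and 22051 and 21177 on the controls, nearly equal. Rag2, the partner of Rag1, differed by -0.21 and Cd4 by 0.29. Early thymocyte and Notch genes had a median of 0.23 over 19 tested (0.129 without control replicate 2), with 15 above 0 and 2, Il2ra and Il7r, apart above control. Ptcra, the pre-T cell receptor alpha chain, read 319.7 and 388 on the estradiol day 3 arrays and 276 and 266 on the controls without overlap, and Notch1 differed by 0.47. Mature single-positive genes had a median of 0.21 over 14 tested, and 3 stood apart above control, Itgb7, Zbtb7b and Il7r. No member of these 3 lists was called by its brightest probe set.

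Of 12 genes of gamma-delta and innate-like T cells, 8 were above 0, and the median was 0.34 (0.222 without control replicate 1). Of the 12, 4 stood apart above control, against 4.13% of all genes. Trgv1 led them, followed by Cd7, which read 32.6 and 103 on the estradiol day 3 arrays and 5.70 and 14.5 on the controls, with the estradiol arrays far from each other. Fcer1g and Nkg7, signalling and granule proteins of killer cells, differed by 0.87 and 0.62. The innate regulator Zbtb16 and the effectors Il17a and Gzmb were below the level tested. B and plasma cell genes had a median of -0.05 over 12 tested, and none stood apart.

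**Figure D4:**
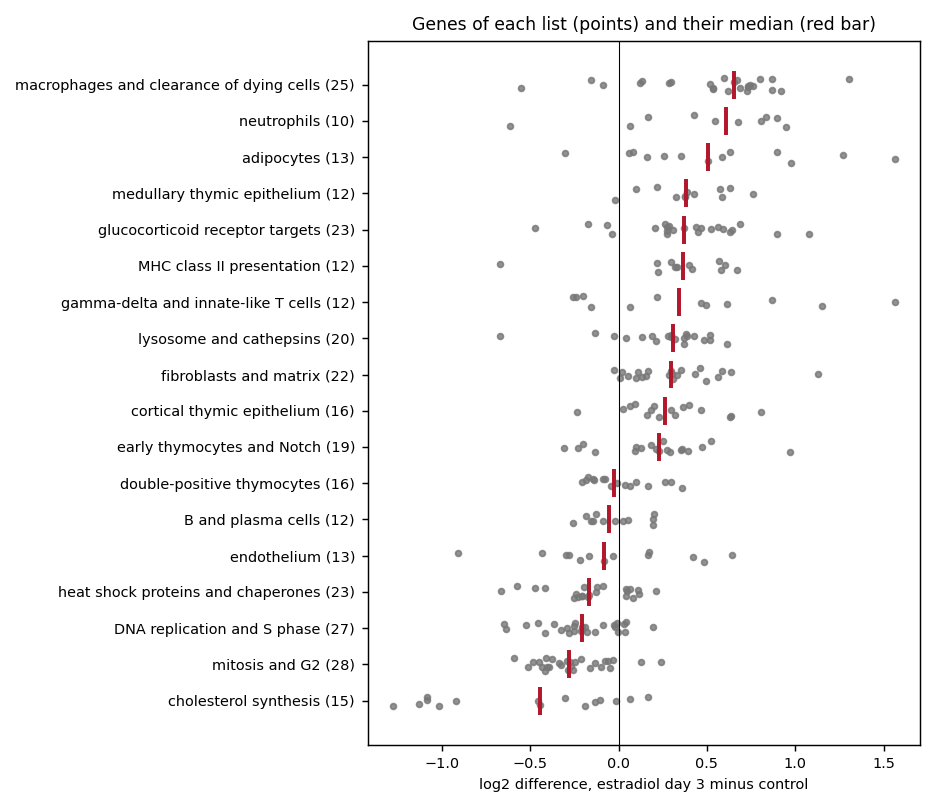
Log2 difference of estradiol day 3 minus control (horizontal axis) for each tested gene (grey points) of 18 gene lists, with the number tested in brackets and the median as a red bar. Macrophage, neutrophil and adipocyte genes lie furthest right with medians of 0.65, 0.61 and 0.51, double-positive thymocyte genes lie around 0, and mitosis and cholesterol genes lie left with medians of -0.28 and -0.45.

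Cell cycle genes leaned downward by small amounts. Of 28 mitosis and G2 genes 26 had negative differences, and the median was -0.28. Of the 28, 2, Bub1 and Aurka, stood apart below control, against 1.97% of all genes. The summed signal was 13581 and 12829 on the estradiol day 3 arrays and 14889 and 16573 on the controls. Aurka, a spindle kinase, read 249.8 and 255 on the estradiol day 3 arrays and 359 and 374 on the controls, and Cdk1, the mitotic kinase, read 639.7 and 600.1 on the estradiol day 3 arrays and 763 and 899 on the controls. Mki67, the usual marker of cycling cells, differed by -0.08 and overlapped, and Birc5 by 0.24. Of 27 DNA replication genes 23 had negative differences, the median was -0.21, and Prim1, Ccne2 and Fen1 stood apart below control. None of these genes was called. The median of the mitosis list was -0.20 without control replicate 2 and -0.36 without control replicate 1.

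Chaperones leaned the same way. Of 23 heat shock and chaperone genes 15 had negative differences, with a median of -0.16. Against 1.97% of all genes, 2 of the 23 stood apart below control. These were Hsph1, a partner of Hsp70, with 277 and 305 on the estradiol day 3 arrays and 549 and 402 on the controls, and Cct2, a subunit of the actin- and tubulin-folding ring, with 1039 and 1231 on the estradiol day 3 arrays and 1573 and 1820.1 on the controls. Ribosomal protein genes and oxidative phosphorylation genes had medians of -0.03 and -0.02 over 24 and 29 tested, with none apart. Apoptosis genes had a median of 0.07 over 18 tested (0.0276 without control replicate 2 and 0.0144 without estradiol day 3 replicate 1), and Bad and Xiap, a promoter and an inhibitor of cell death, stood apart below control at -0.90 and -0.51.

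Targets of the glucocorticoid receptor, the steroid pathway best known for killing thymocytes, had a median of 0.37 over 23 tested. Of these 19 were above 0, and none was called by its brightest probe set. The 8 that stood apart above control, against 4.13% of all genes, were led by Tsc22d3. Gpx3, an extracellular peroxidase, read 219 and 199.5 on the estradiol day 3 arrays and 133 and 123 on the controls. Il7r, the interleukin 7 receptor, read 275 and 287 on the estradiol day 3 arrays and 188 and 193 on the controls. Genes known to answer to estrogen in other tissues had a median of 0.16 over 17 tested, or 0.0617 without control replicate 2, and 2 stood apart above control. These were Cyp1b1, which hydroxylates estradiol, at 0.69 and Ltf, the lactoferrin of uterus and neutrophils, at 0.54.

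Stress, lysosome and antigen presentation genes leaned upward. Of 22 oxidative stress genes 2 were called, Cbr2 and Hmox1, against 0.0609% of all genes. Of the 22, 6 stood apart above control, against 4.13% of all genes, and the median was 0.22. The median was 0.116 without control replicate 2 and 0.39 without control replicate 1. Of 20 lysosomal genes 17 had positive differences, with a median of 0.31 and 3 apart above control, among them Ctsb, a cathepsin, with 1517 and 1592 on the estradiol day 3 arrays and 1100.3 and 1062 on the controls. Ctss was the 1 lysosomal gene apart below. Of 12 MHC class II genes 11 had positive differences, the median was 0.365, and 4 stood apart above control. H2-Ab1, the beta chain of I-A, read 888 and 860.4 on the estradiol day 3 arrays and 625 and 546 on the controls, so Ctss lay against the direction of the genes it is grouped with. Dendritic cell genes had a median of 0.28 over 15 tested, with 3 apart above control.

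The comparison with genistein at the same day used control arrays only in the shared estimate of spread. The genistein mice took their agent in the diet and had no oil. Agent, oil and injection therefore cannot be told apart in this comparison. Here 2 probe sets were higher in estradiol day 3 at a limma adjusted p under 0.05 and none lower, 0.0147% of those tested, and by brightest probe set no gene was called. The unadjusted p was under 0.05 for 910 probe sets. The dimmer Nktr probe set read 168 and 171 on the estradiol day 3 arrays and 34.3 and 39.6 on the genistein arrays, 1.81 ± 0.20 higher (log2, SE, limma adjusted p = 0.00559). A probe set with no single gene symbol read 219 and 190.0 on the estradiol day 3 arrays and 54.1 and 66.9 on the genistein arrays, 1.53 ± 0.22 higher (log2, SE, limma adjusted p = 0.0498). It was called in 5 of 23 alternatives, and Nktr in 19 of 23. The count of 2 was 0 without any 1 array of estradiol day 3 or genistein day 3, 6 without either genistein day 6 array, and 1 without any 1 of the other 8. Malat1 read 82.8 and 206 on the genistein arrays, and its difference of 2.58 ± 0.41 had a limma adjusted p of 0.0933.

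Further genes with small unadjusted p against genistein were not called. Cmah read 156 and 149 on the estradiol day 3 arrays and 60.5 and 63.7 on the genistein arrays. Gm6958 and Tent5c, a cytoplasmic poly(A) polymerase, differed by 1.01 and 0.95. Lower in estradiol were Ctss with 587 and 528 on the estradiol day 3 arrays and 1025 and 853 on the genistein arrays, and Plvap with 30.4 and 27.5 on the estradiol day 3 arrays and 64.4 and 66.6 on the genistein arrays. In both genes every estradiol value lay under every genistein and every control value. Zdhhc6, a palmitoyltransferase gene whose genistein arrays were far from each other, and Tmem37 differed by -2.43 and -0.73.

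Set side by side, the lists differed in how far genistein day 3 went from the same 2 controls. The medians for estradiol day 3 and for genistein day 3, both against control, were -0.45 and -0.42 for cholesterol synthesis, 0.37 and 0.27 for glucocorticoid targets, 0.65 and 0.29 for macrophages, and 0.51 and -0.07 for adipocytes. For fibroblast and matrix genes they were 0.30 and 0.01. The median differences between estradiol and genistein at day 3 were -0.18, 0.03, 0.27, 0.54 and 0.27 for these 5 lists. No member of the 5 lists was called between the 2 treatments.

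Against the mean of estradiol days 2 and 6, day 3 had 2 probe sets lower at a limma adjusted p under 0.05 and none higher, 0.0147% of those tested. By brightest probe set that is 1 gene, or 0.0122%. The unadjusted p was under 0.05 for 453 probe sets. Plvap read 122 and 103 on the day 2 arrays, 30.4 and 27.5 on the day 3 arrays and 89.0 and 118 on the day 6 arrays, against 64.1 and 72.8 in control. Day 3 was -1.45 ± 0.16 from the mean of the other days (log2, SE, limma adjusted p = 0.00224). A dimmer probe set of Ighm, the heavy chain of IgM, read 132 and 124 on the day 2 arrays, 32.2 and 49.4 on the day 3 arrays and 172 and 236 on the day 6 arrays, against 36.0 and 41.8 in control. Day 3 was -1.65 ± 0.18 from the mean of the other days (log2, SE, limma adjusted p = 0.00224), at the level of control. The count of 2 was 0 and 1 without estradiol day 3 replicate 1 and 2 in turn. The brightest Ighm probe set read 2476 and 2303 on the day 2 arrays, 2024 and 2111 on the day 3 arrays and 2622 and 2572 on the day 6 arrays. On the controls it read 1738 and 1853, under both day 3 arrays. Its day 3 difference from the other days was -0.27. The remaining tested Ighm probe sets differed by -0.26, -0.78 and -0.19, and none of these was called.

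Iglv1 and Jchain, next in the same ranking, also lay under days 2 and 6 on both day 3 arrays without being called. The B and plasma cell list as a whole had medians against control of 0.24 on day 2, -0.05 on day 3 and -0.07 on day 6. Iglv1, a light chain variable segment whose probe set can match several transcripts, read 120.2 and 113 on the day 2 arrays, 59.3 and 79.9 on the day 3 arrays and 239.9 and 218 on the day 6 arrays. Jchain, which joins IgM and IgA units, read 342 and 266 on the day 2 arrays, 204 and 187 on the day 3 arrays and 491 and 402 on the day 6 arrays. In both genes the day 3 arrays lay with the controls, at 63.0 and 53.6 for Iglv1 and 164 and 223 for Jchain. Ctss read 951 and 931 on the day 2 arrays, 587 and 528 on the day 3 arrays and 740.3 and 762 on the day 6 arrays, and its day 3 difference was -0.58 (limma adjusted p = 0.35). Higher at day 3 without a call were Apoc1, an apolipoprotein, with 81.9 and 73.4 on the day 2 arrays, 129.6 and 130.4 on the day 3 arrays and 72.3 and 82.5 on the day 6 arrays, and Sec24b, Nol12 and Klk8, which differed by 0.75, 1.34 and 0.76. The genistein day 3 arrays read 126 and 128 for Apoc1, as high as estradiol day 3.

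**Figure D5:**
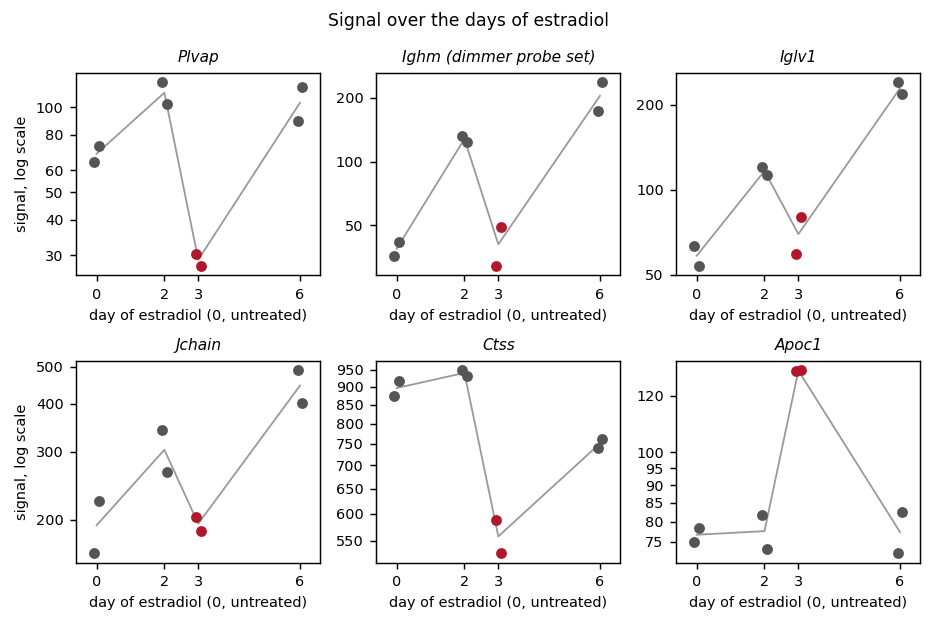
Rescaled signal (vertical log axes) of 6 probe sets on each control array (day 0) and each estradiol array of days 2, 3 and 6 (horizontal axes), with day 3 in red and lines through group means. Plvap at 30.4 and 27.5 lies under every other day, the immunoglobulin probe sets at day 3 lie near day 0 and under days 2 and 6, and Apoc1 at day 3 lies above every other day.

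None of the 9 probe sets called against control was called between day 3 and the mean of days 2 and 6, the smallest limma adjusted p being 0.35 for Nktr. Slc2a4 read 82.9 and 94.5 on the day 2 arrays, 68.4 and 73.4 on the day 3 arrays and 55.6 and 75.5 on the day 6 arrays. Fdps read 211 and 186 on the day 2 arrays, 173 and 190.4 on the day 3 arrays and 239.7 and 198 on the day 6 arrays. Malat1 read 317 and 209 on the day 2 arrays, 891 and 850.4 on the day 3 arrays and 739.6 and 643 on the day 6 arrays, highest at day 3 on both arrays.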

How the data were processed

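The deposited values are intensities made by the authors with MAS5 5.0, per the submitters' processing notes, for 14 arrays of mouse thymus. The scaling target and the reason that 3 arrays carry another scale are not given in the labels or notes used here. Control probe sets (64) were removed, every array was multiplied to a 2%-trimmed mean of 150.04, 16 was added and log2 taken, and probe sets in the lowest 40% of mean level were dropped, which kept 13575 for 8214 genes. Gene symbols came from the platform annotation; 12441 of those tested carry 1 symbol. The means of 7 groups were fitted with limma 3.58.1 (R 4.3.3) with an intensity trend, 7 residual degrees of freedom (13.74 after moderation) and Benjamini-Hochberg adjustment over all probe sets tested.

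The small number of arrays limits precision. Differences are on the log2(signal + 16) scale, which understates changes of dim genes. A gene stands by its brightest probe set with 1 symbol. Genes named against control include those called at an adjusted p under 0.05. They also include the 14 smallest unadjusted p in each direction among genes that stood apart. For the other comparisons, every probe set called and the 4 smallest p in each direction by brightest probe set are named. Further names are 9 looked-up genes, and up to 5 members of a list by p with its defining genes. Other genes, such as those named because they alone stood apart in a list, were chosen after their values were seen. The members and lists were chosen with earlier results of these data known, so lists are described by counts and medians without a test. The fit was also run on simulated data with known differences. The simulation gave every group the same spread, unlike the arrays here, so it does not bear on how stable the counts are.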

Additional observations from a re-analysis of the deposited data

Results flagged for a closer look

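Differences between estradiol day 3 and another treated group that passed a test are listed here. Between estradiol and genistein at day 3, the dimmer Nktr probe set differed by 1.81 and a probe set without a single gene symbol by 1.53 on the log2 scale, both higher with estradiol and both past the limma adjusted p of 0.05. Between estradiol day 3 and the mean of estradiol days 2 and 6, Plvap differed by -1.45 and the dimmer Ighm probe set by -1.65 on the log2 scale, both past the same threshold. Nktr lost its call without any 1 of the 4 arrays compared, the unnamed probe set without any 1 of 12 of the 14 arrays, Plvap without either estradiol day 3 array, and Ighm without estradiol day 3 replicate 1. No test for a single distant array was possible with 2 arrays a group.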

How the results depend on the processing

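The number of probe sets called was the part most open to the processing. Against control it was 9, and it became 3 with the lowest 60% left out, 1 with only the compared arrays in the fit and 12804 with the values as deposited. Leaving out 1 array at a time gave 0 to 184. Against genistein day 3 it was 2, and it became 0 with the lowest 60% left out, 13025 with the values as deposited, and 1 with a pseudocount of 1, quantile normalization, median centring, no trend or the replicate block. Leaving out 1 array at a time gave 0 to 6. Against days 2 and 6 it was 2, and it became 4 with a pseudocount of 64, 4 with no filter, 0 with the lowest 60% left out, 0 with only the compared arrays and 12930 with the values as deposited. Leaving out 1 array at a time gave 0 to 3. The deposited scale by itself moves the median of all probe sets by 1.01, 1.01 and 0.87 in these comparisons, and single differences under that setting are read relative to that shift. With the replicate number as a block the counts were 10, 1 and 2. The numbers did not pair the samples, since deviations of same-numbered arrays correlated at -0.0349 between estradiol day 3 and control and 0.0507 between estradiol day 3 and genistein day 3.

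Of the genes named or looked up against control, 11 turned direction under at least 1 setting. Over the fits that left out 1 array each, the brighter Nktr probe set ran from -0.0766 to 0.92, the plasma cell regulator Prdm1 from -0.172 to 0.56, Cd8a from -0.0847 to 0.156, Foxn1 from -0.0435 to 0.0903, Adipoq from -0.726 to 0.118, Lss from -0.229 to 0.36, Lyz2 from -0.246 to 0.0648, Mki67 from -0.172 to 0.0143, Neat1 from -0.0808 to 0.209, Sc5d from -0.0824 to 0.0485 and Tm7sf2 from -0.477 to 0.816. Foxn1 was also at -0.0201 with the values as deposited, -0.00953 with quantile normalization and -0.00612 with median centring, Lss at -0.0115 with the values as deposited and Tm7sf2 at -0.0357 with quantile normalization. Among list medians, those of double-positive thymocytes, oxidative phosphorylation, B and plasma cells, ribosomal proteins and endothelium changed sign under at least 1 setting. The causes were not tested. Few arrays, and dim probe sets near background, limit what can be called.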

Other observations

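Chemokine and interferon genes, some of them also in lists above, leaned upward. Of 16 thymic chemokine and receptor genes 2 stood apart above control, Ccl5 and Cxcl9, against 4.13% of all genes, and the median was 0.24. Ccl5, a chemokine of killer cells, read 352 and 363 on the estradiol day 3 arrays and 256 and 233 on the controls, and Cxcl9, an interferon-gamma target, read 66.4 and 47.2 on the estradiol day 3 arrays and 46.7 and 22.4 on the controls. Of 24 interferon response genes 19 had positive differences, and the median was 0.18. Of the 24, 2 stood apart above control, Cxcl9 again and Irf7, a regulator of interferon genes. Beside the 4.13% of all genes, so few members apart say little about either list. Irf7 read 294 and 256 on the estradiol day 3 arrays and 165 and 194 on the controls. No member of either group was called.

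Markers of neighbouring tissue were mostly dim. Of 16 skeletal muscle genes 11 were below the level tested, and the summed signal of the 5 tested was 333 and 293 on the estradiol day 3 arrays and 287 and 384 on the controls. Of 4 parathyroid and thyroid genes tested none stood apart.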
